A study of Arabidopsis thaliana with 6 samples.

Results

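Transcript levels of 10 Arabidopsis thaliana genes of nitrate transport and nitrate reduction were compared between wild-type plants and plants whose labels give the double mutant ucp1 ucp3. The genes were taken by name and locus, with earlier results of these data known, and are 7 transporter genes (NRT1.1, NRT1:2, NRT1.4, NRT1.5, NRT1.7, NRT1.8 and NRT2.1) and 3 enzyme genes (NIA1, NIA2 and NIR1), of 27416 genes in the deposited tables. Each of the 10 has 1 transcript model there, and all 10 passed the filter on low counts. Polyadenylated RNA was sequenced from vegetative tissue of plants of the Columbia ecotype, aged 21 days and grown in MS medium under normal conditions, in 3 biological replicates per genotype. Nothing in the labels says how the replicates were separated, so p-values measure the spread between these samples. The series asks how disturbing mitochondrial uncoupling proteins, carriers of the inner mitochondrial membrane, alters the transcriptome.

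Nitrate is taken up at the root surface by low-affinity transporters of the NRT1 family and high-affinity transporters of the NRT2 family. It is loaded into and retrieved from the xylem, stored in vacuoles and moved between leaves through the phloem. Nitrate reductase converts nitrate to nitrite in the cytosol, and nitrite reductase converts nitrite to ammonium in plastids. MS medium supplies both nitrate and ammonium.

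Libraries held between 1183612 reads (replicate 3 labelled ucp1 ucp3) and 11296137 reads (replicate 2 of that group). UCP1 was present at 67.3 to 75.3 CPM (reads scaled to a common library size) in wild-type and 46.6 to 67.2 CPM in those labelled ucp1 ucp3, and UCP3 at 12.3 to 16.1 against 8.68 to 10.8 CPM. Neither difference passed the test, with edgeR adjusted p-values of 0.226 and 0.224, so the transcripts of the targeted genes give no check of the labels, and every direction below rests on them. Leaf markers summed to 35450 to 38000 CPM in wild-type, against 37470 to 46900 in the mutant-labelled libraries, and all 8 had reads in every library. Root markers were present too: 12 genes summed to 1748 to 2508 CPM in wild-type, against 1554 to 2047 in the mutant-labelled libraries, most of it from PYK10, with WOX5 at 0 reads in labelled replicates 1 and 3. The 6 floral organ identity genes summed to 16.6 to 17.7 CPM and 16.9 to 21.5 CPM. Among them AP3 had 0 reads in wild-type replicates 2 and 3, AG in wild-type replicate 2 and AP1 in wild-type replicate 3. In such bulk samples, fewer cells of a type and less RNA per cell cannot be told apart.

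Changes were found among the transporter genes. NRT1:2 and NRT1.7 were lower where the label is ucp1 ucp3, by 1.46-fold and 1.62-fold, and NRT1.5 was 1.58-fold higher. These 3 of 10 genes passed the test (edgeR quasi-likelihood test, adjusted p under 0.05 over 17415 genes), where 1.26% of all genes tested were called, 0.781% as higher and 0.482% as lower. The calls depend on the settings: 6 of 15 alternatives called none of the 10, among them 4 of the 6 that leave out 1 library, and limma on log2(TPM + 1) lost all 3. NRT1.8 had the lowest log2 fold change of the 10, at -0.97, and narrowly missed the threshold (edgeR adjusted p = 0.0575). The 3 enzyme genes did not pass. The groups did not overlap in 6 of the 10 genes, 2 higher and 4 lower, against 23.6% of all genes tested. Those 6 are all transporters, and they are the same 6 that had an unadjusted p under 0.05, which 16.4% of all genes tested had. The median log2 fold change was -0.36 over the 7 transporter genes, 0.08 over the 3 enzyme genes and 0.00 over all genes tested. The median size of the change, regardless of direction, was 0.66 over the transporters and 0.18 over all genes tested.

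**Figure D1:**
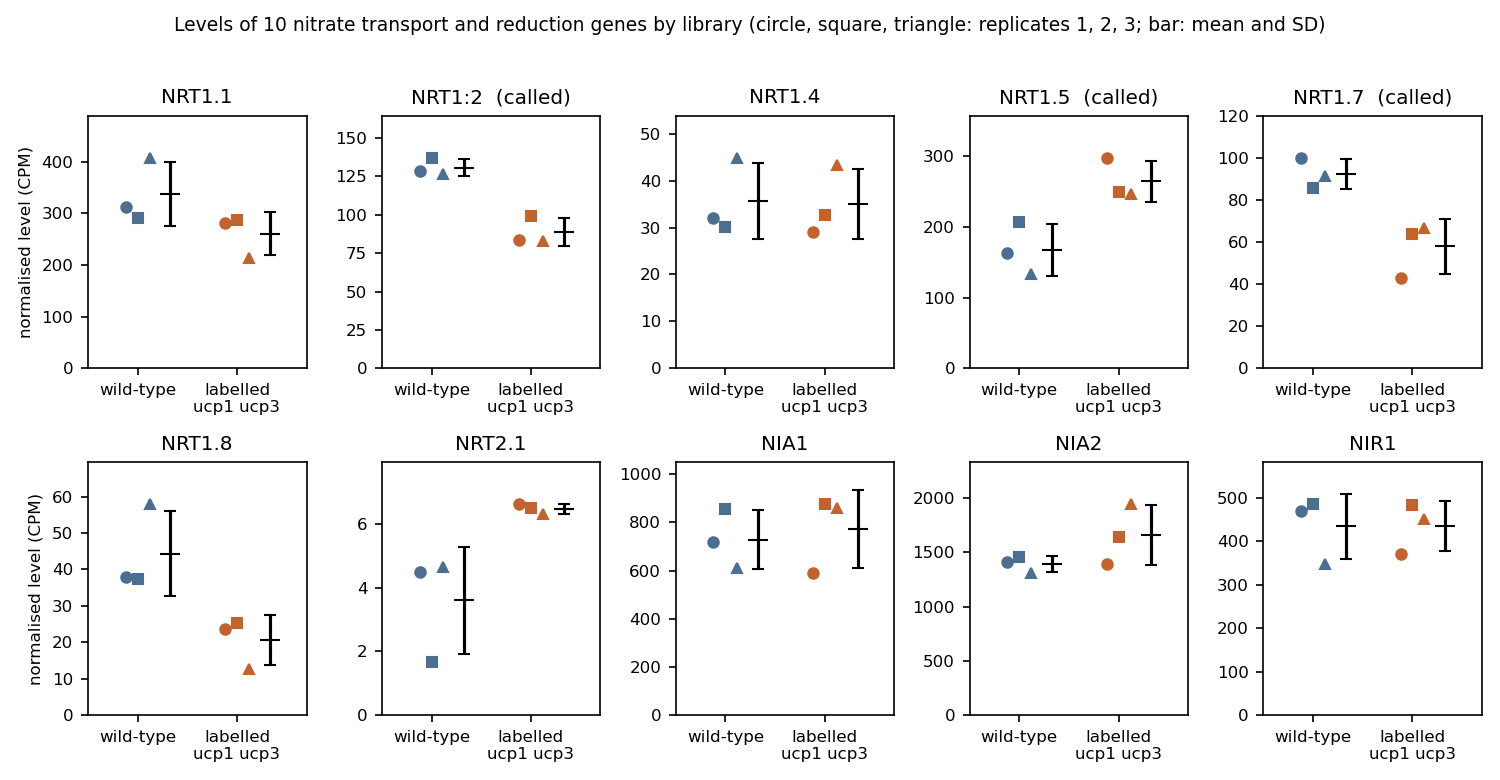
Normalised level (CPM, each axis from 0) of the 10 genes in each of the 6 libraries, with blue points for wild-type and orange points for libraries labelled ucp1 ucp3, and the mean and SD of each group (n = 3) beside them. The groups separate for NRT1.1, NRT1:2, NRT1.5, NRT1.7, NRT1.8 and NRT2.1, and overlap for NRT1.4, NIA1, NIA2 and NIR1.

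Of the genes that act at the root surface, NRT1:2 (AT1G69850, also named NPF4.6), a low-affinity nitrate transporter of root epidermis that also imports abscisic acid, had 129, 137 and 126 CPM in wild-type replicates 1 to 3. In the labelled mutants it had 83.9, 99.3 and 83.1 CPM. Every labelled mutant lay below every wild-type library, and the gap between the groups was wider than the range within either. The means were 131 ± 5.66 and 88.7 ± 9.13 CPM (SD, n = 3), and the log2 fold change was -0.54 (95% interval -0.78 to -0.30; edgeR adjusted p = 0.0358). Between 92 and 1129 reads per library stand behind these values. Leaving out wild-type replicate 1, 2 or 3 moved the adjusted p from edgeR to 0.131, 0.0797 and 0.0561, and leaving out labelled replicate 1 or 3 moved it to 0.131 and 0.113, while the log2 fold change stayed between -0.65 and -0.49. After thinning to the shallowest library, the edgeR adjusted p of NRT1:2 was 0.089.

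NRT1.1 (AT1G12110, NPF6.3), a transporter of both low and high affinity that also acts as a nitrate sensor, was the most abundant transporter of the 7 in wild-type by TPM (abundance corrected for transcript length). Its CPM values were 312, 291 and 407 in wild-type and 281, 287 and 213 in the labelled mutants. The groups did not overlap, but the lowest wild-type library and the highest labelled mutant differed by less than the replicates of either group. The log2 fold change of -0.36 (95% interval -0.67 to -0.04) did not pass (edgeR adjusted p = 0.239).

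NRT2.1 (AT1G08090), the main high-affinity transporter of root nitrate uptake, stood at the bottom of the expression range, with 6 to 74 reads per library. It had 4.50, 1.66 and 4.65 CPM in wild-type, against 6.63, 6.51 and 6.32 in the mutant-labelled libraries, where 3 reads, the detection floor, correspond to at most 0.831 CPM in wild-type and at most 2.71 CPM in the labelled mutants. The labelled mutants lay close together above all wild-type libraries, and wild-type replicate 2 lay apart from the other two. The log2 fold change was 0.81 (95% interval 0.12 to 1.5; edgeR adjusted p = 0.222), and 0.51 without wild-type replicate 2. NRT2.2, its neighbour in the genome, was listed at 0 reads in all 6 libraries. The 2 genes share sequence, with 14.7% of the 31-base words of the NRT2.1 mRNA also found in NRT2.2. Of the words of NRT2.2, 18.2% are shared, mainly with NRT2.1. The split between them is therefore uncertain for reads from the shared part only. NRT3.1 (AT5G50200), the partner protein that NRT2.1 requires, had an estimate of the other sign, at 62.0, 44.1 and 63.5 CPM in wild-type, against 43.2, 39.7 and 33.4 in the mutant-labelled libraries. The groups of NRT3.1 were separated by less than 1 CPM, and its log2 fold change of -0.51 did not pass (edgeR adjusted p = 0.101). NRT3.1 was called in 2 of 15 alternatives, thinning to the shallowest library and edgeR without wild-type replicate 2 (adjusted p = 0.0374).

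The pair of NPF7 transporters that act on the xylem had estimates of opposite sign, of which that of NRT1.5 passed the test. NRT1.5 (AT1G32450, NPF7.3), which loads nitrate into the root xylem for transport to the shoot, had 163, 207 and 133 CPM in wild-type, against 298, 249 and 246 in the mutant-labelled libraries. All labelled mutants were above the highest wild-type library. The means were 168 ± 37.0 and 264 ± 28.7 CPM (SD, n = 3), with a log2 fold change of 0.66 (95% interval 0.35 to 0.98; edgeR adjusted p = 0.0450). The edgeR adjusted p of NRT1.5 was 0.172 without wild-type replicate 1, 0.112 without wild-type replicate 3, 0.178 without labelled replicate 1 and 0.12 without labelled replicate 3. Scaling by library totals alone gave 0.59 and an edgeR adjusted p of 0.0703, and limma-voom gave 0.68 and an adjusted p of 0.051.

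NRT1.8 (AT4G21680, NPF7.2), which removes nitrate from the xylem sap, had 37.9, 37.4 and 57.9 CPM in wild-type, against 23.5, 25.3 and 12.6 in the mutant-labelled libraries. Wild-type replicate 3 was the highest library and labelled replicate 3, with 14 reads, the lowest. The groups did not overlap, and the log2 fold change was -0.97 (95% interval -1.44 to -0.50; edgeR adjusted p = 0.0575). NRT1.8 was called in 4 of 15 alternatives, among them 1 of the 6 that leave out 1 library. With 1 library left out, its log2 fold change ranged from -1.13 to -0.73. The calls included edgeR without wild-type replicate 2 (adjusted p = 0.0349) and DESeq2 (adjusted p = 0.00263). The ratio of NRT1.5 to NRT1.8 in TPM, a quantity chosen after the values were seen and therefore not tested, was 4.19, 5.40 and 2.25 in wild-type and 12.3, 9.60 and 19.0 in the labelled mutants. The lowest labelled ratio lay above the highest wild-type ratio. This had to follow once NRT1.5 was higher and NRT1.8 lower in every labelled mutant, so it adds no further result.

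Root markers other than PYK10 summed to 86.0, 117 and 77.2 CPM in wild-type, against 178, 99.9 and 110 in the mutant-labelled libraries. PYK10, which makes up most of the full sum, had a log2 fold change of -0.18. Labelled replicate 1, with the highest sum without PYK10, also had the highest NRT1.5. Wild-type replicate 2 had the next highest such sum but less NRT1.5 than labelled replicates 2 and 3. Over the 10 root markers tested, 9 estimates were above 0, 0 were called and the median log2 fold change was 0.34. With 2 markers at an unadjusted p under 0.05, the largest was LRX1, a root hair cell wall gene (1.21; edgeR adjusted p = 0.0761). All 8 leaf markers were above 0, with a median of 0.29 and 0 called, 3 of them at an unadjusted p under 0.05. Of the 17415 genes tested, 8634 were above 0, 1.26% were called and 16.4% had an unadjusted p under 0.05. The part of root and leaf content in the transporter values was not tested.

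Transporters of nitrate within the shoot are NRT1.7 and NRT1.4. NRT1.7 (AT1G69870, NPF2.13), a phloem transporter that moves nitrate from older to younger leaves, had 100.1, 85.9 and 91.3 CPM in wild-type, against 43.0, 64.1 and 66.8 in the mutant-labelled libraries. The highest labelled mutant lay below the lowest wild-type library, and labelled replicate 1 was the lowest of all. From means of 92.4 ± 7.17 and 58.0 ± 13.1 CPM (SD, n = 3), the log2 fold change was -0.70 (95% interval -1.02 to -0.38; edgeR adjusted p = 0.0374). The adjusted p from edgeR rose to 0.162 without wild-type replicate 1, 0.0680 without wild-type replicate 3, 0.119 without labelled replicate 1, 0.0804 without labelled replicate 3 and 0.0695 after thinning to the shallowest library. NRT1.4 (AT2G26690, NPF6.2), which stores nitrate in leaf petioles, had 31.9, 30.2 and 44.9 CPM in wild-type, against 29.0, 32.7 and 43.3 in the mutant-labelled libraries. Its groups overlapped throughout, and its log2 fold change was -0.10 (95% interval -0.48 to 0.27; edgeR adjusted p = 0.839).

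NRT1:2 and NRT1.7 lie close to each other on chromosome 1, with AT1G69860, of the major facilitator superfamily, and a non-coding locus between them; AT1G69860 did not pass the filter. AT1G69840, a gene of the SPFH/Band 7 family next to NRT1:2, moved in the other direction, from 36.8 ± 2.99 to 65.0 ± 13.6 CPM (SD, n = 3; log2 fold change 0.76, edgeR adjusted p = 0.0297). The 250 bases before the annotated start of the 3 called genes are shown because 2 of them fell and 1 rose; they come from RefSeq, build TAIR10.1, and were located by that build's own annotation. They read 5′ to 3′ on the gene's strand, with matches to TATAAA on either strand in capitals, and lie at chr1:26300685-26300934 (minus strand), chr1:26315537-26315786 (plus strand) and chr1:11719989-11720238 (minus strand).
NRT1:2: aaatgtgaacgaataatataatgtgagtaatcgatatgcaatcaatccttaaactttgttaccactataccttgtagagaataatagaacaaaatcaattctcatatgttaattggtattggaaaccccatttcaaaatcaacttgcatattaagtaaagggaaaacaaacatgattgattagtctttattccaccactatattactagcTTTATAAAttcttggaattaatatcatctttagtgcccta
NRT1.7: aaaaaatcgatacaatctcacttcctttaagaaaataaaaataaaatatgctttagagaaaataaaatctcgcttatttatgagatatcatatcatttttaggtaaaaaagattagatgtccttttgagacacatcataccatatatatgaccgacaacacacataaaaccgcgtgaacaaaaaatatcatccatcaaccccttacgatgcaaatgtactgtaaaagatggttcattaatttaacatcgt
NRT1.5: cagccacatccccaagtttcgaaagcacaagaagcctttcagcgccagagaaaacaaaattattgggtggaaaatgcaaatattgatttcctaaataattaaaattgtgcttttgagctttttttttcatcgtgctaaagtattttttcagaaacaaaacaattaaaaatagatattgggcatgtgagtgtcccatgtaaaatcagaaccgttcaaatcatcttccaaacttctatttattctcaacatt
The motif TATAAA, searched on both strands, occurs in the NRT1:2 window at bases -38 to -33 from the start, where it overlaps a match on the other strand, and in neither of the other windows. It is in 47.3% of 27443 such windows of protein-coding genes. The G-box CACGTG, a motif bound by bZIP and bHLH factors, and ACGTGNC, a core of abscisic acid response elements that can overlap it, are in none of the 10 windows of the members, against 6.49% and 8.57% of all windows. These letters being absent says nothing beyond these windows.

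**Figure D2:**
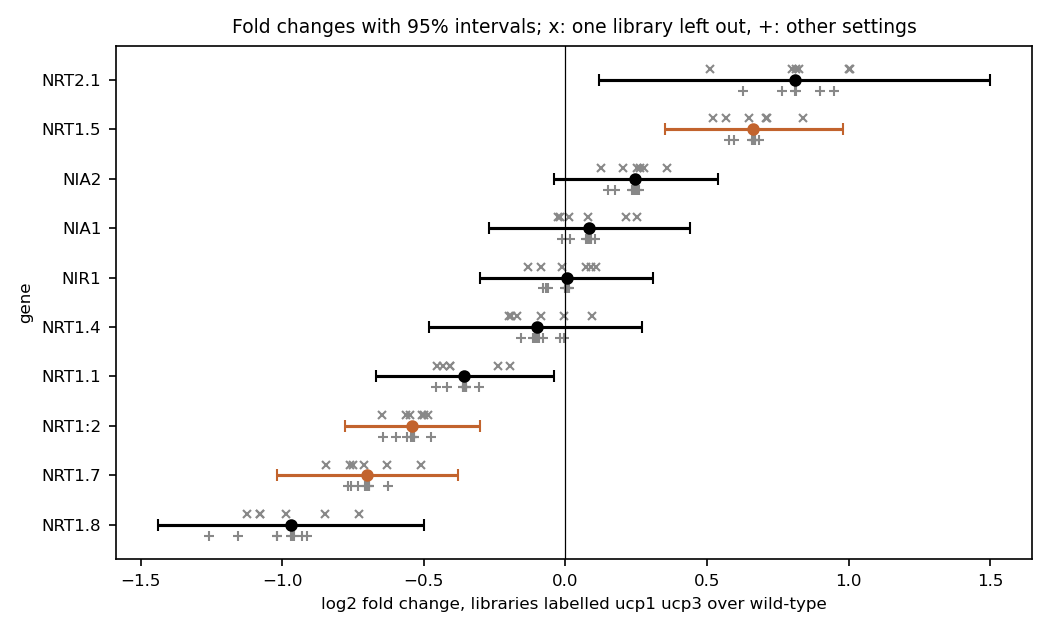
Log2 fold change of each gene (point) with its 95% interval (bar), with orange for the 3 called genes; crosses above a bar leave out 1 library and plus signs below it are other settings of normalisation, filter or tool. NRT1.5 and NRT2.1 stay right of 0 and NRT1.1, NRT1:2, NRT1.7 and NRT1.8 left of it, while NIA1, NIR1 and NRT1.4 fall on both sides.

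The 3 enzyme genes of nitrate reduction had the highest mean TPM of the 10 in both groups, although NRT1.1 was above NIR1 in wild-type replicate 3 (221.5 against 192 TPM). NIA2 (AT1G37130), the gene of the major nitrate reductase of leaves, had 1414, 1455 and 1313 CPM in wild-type, against 1388, 1642 and 1941 in the mutant-labelled libraries. Labelled replicate 3 was the highest, and labelled replicate 1 lay within the wild-type range. The log2 fold change was 0.25 (95% interval -0.04 to 0.54; edgeR adjusted p = 0.396), an interval that reaches from 0.973-fold to 1.45-fold of wild-type.

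NIA1 (AT1G77760), the second nitrate reductase gene, had 718, 856 and 612 CPM in wild-type, against 588, 874 and 859 in the mutant-labelled libraries. Labelled replicate 1 was the lowest and labelled replicate 2 the highest library, so the groups overlapped fully (log2 fold change 0.08, 95% interval -0.27 to 0.44; edgeR adjusted p = 0.862). NIA1 made up 34.4%, 37.8% and 32.5% of the summed TPM of both reductase genes in wild-type and 30.4%, 35.5% and 31.4% in the labelled mutants. The shares averaged 34.9 ± 2.67% and 32.4 ± 2.69% (SD, n = 3) and overlapped (exact two-sided permutation test, p = 0.3, where 0.1 is the smallest p that 20 splits allow).

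NIR1 (AT2G15620), the nitrite reductase gene, had 469.8, 485 and 348 CPM in wild-type, against 372, 484 and 451 in the mutant-labelled libraries. Wild-type replicate 3 and labelled replicate 1 were low, and the remaining 4 libraries lay close together. The means were 434 ± 74.9 and 436 ± 57.5 CPM (SD, n = 3), and the log2 fold change of 0.00 had a 95% interval from -0.30 to 0.31 (edgeR adjusted p = 0.998), which leaves room for a level between 0.812-fold and 1.24-fold of wild-type.

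**Figure D3:**
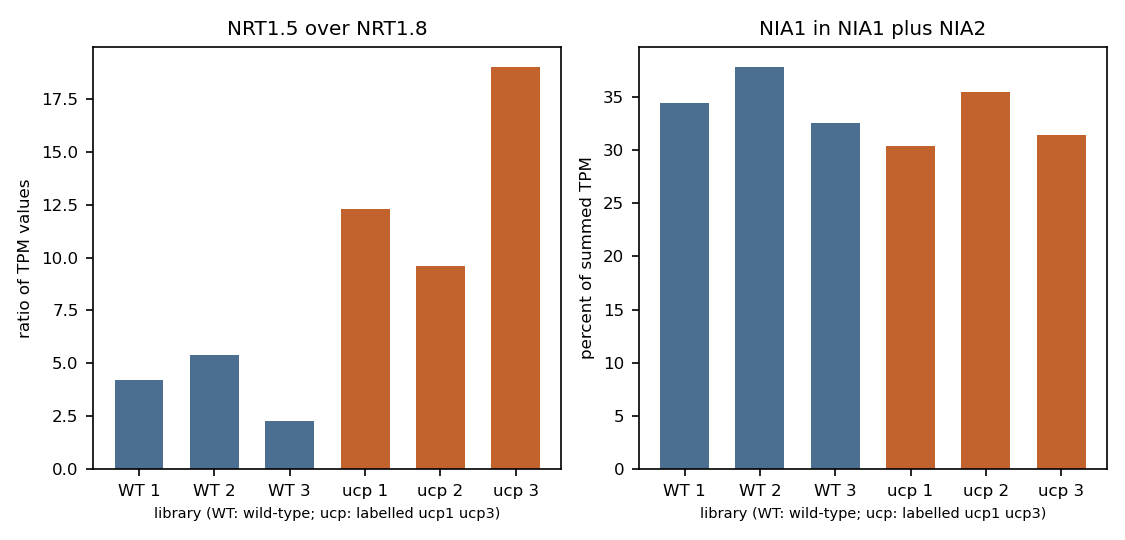
Left, the ratio of NRT1.5 to NRT1.8 TPM in each library; right, NIA1 as a percent of the summed TPM of NIA1 and NIA2, both axes from 0 (blue bars wild-type, orange bars labelled ucp1 ucp3). The xylem transporter ratio is between 2.25 and 5.40 in wild-type and between 9.60 and 19.0 in the labelled mutants, while the shares of NIA1 overlap. The gap in the ratio follows from the separate groups of NRT1.5 and of NRT1.8.

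Levels per transcript length were compared in the TPM values deposited by the authors. In wild-type the order was NIA2 (512 ± 35.4 TPM), NIA1 (277 ± 51.1), NIR1 (244 ± 45.5), NRT1.1 (186 ± 31), NRT1.5 (90.3 ± 21.5), NRT1:2 (74.0 ± 4.48), NRT1.7 (50.3 ± 3.63), NRT1.8 (24.4 ± 6.02), NRT1.4 (21.0 ± 4.37) and NRT2.1 (2.25 ± 1.03), each as SD with n = 3. Neighbours whose libraries overlapped were NIA1 with NIR1, NIR1 with NRT1.1, NRT1.5 with NRT1:2, and NRT1.8 with NRT1.4. In the labelled mutants NRT1.5 reached 133 ± 11.3 TPM and overlapped NRT1.1, at 136 ± 24.4 TPM. There NRT1.8, at 10.6 ± 3.78 TPM, lay below NRT1.4, at 19.4 ± 4.07 TPM, with no overlap.

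The counts in the wider pathway stand beside 1.26% of all genes tested called by edgeR and 16.4% at an unadjusted p under 0.05. Of 24 other nitrate transporter and channel genes, 18 were tested and edgeR called 0 higher and 0 lower, with a median log2 fold change of -0.02. In that list 2 genes had an unadjusted p under 0.05, NRT3.1 and SLAH2, an anion channel homologue (-0.83; edgeR adjusted p = 0.138), and DESeq2 and limma-voom called 0. The vacuolar nitrate exchanger gene CLCa had 0.20 (edgeR adjusted p = 0.485), with overlapping groups. Regulators of the nitrate response, among them NLP7, the transcription factor of the primary response, made up a list of 32, of which edgeR and limma-voom tested 29 and called 0; DESeq2 also called 0. In edgeR 3 had an unadjusted p under 0.05, and the median log2 fold change was 0.09. The smallest p-values there were those of BT2, a BTB and TAZ domain protein gene that responds to nutrients (0.43; edgeR adjusted p = 0.125), and of AT3G60320 (0.35; edgeR adjusted p = 0.172). NLP7 had 87.0, 79.8 and 74.4 CPM in wild-type, against 87.5, 90.3 and 133 in the mutant-labelled libraries (0.31; edgeR adjusted p = 0.308).

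Genes that supply cofactors and reductant to the enzymes form 2 further lists, to be read against the same 1.26% and 16.4% of all genes. For molybdenum cofactor, molybdate and siroheme supply, 10 of 10 were tested and 0 called in edgeR, DESeq2 and limma-voom, with 3 at an unadjusted p under 0.05 and a median log2 fold change of -0.11. The smallest p-values were those of MOT2, a molybdate transporter gene (0.42; edgeR adjusted p = 0.194), and SIRB, which encodes the last enzyme of siroheme synthesis (-0.37; edgeR adjusted p = 0.241). All 31-base words of MOT2 also lie on the opposite strand of another annotated RNA, so its reads are uncertain. In the list of plastid pentose phosphate and ferredoxin genes, 7 of 7 were tested and 0 called in edgeR, DESeq2 and limma-voom, with 5 at an unadjusted p under 0.05. The root-type ferredoxin reductase genes had opposite signs: RFNR1 went from 54.5, 58.5 and 73.4 CPM to 42.3, 44.6 and 39.7 CPM (-0.54; edgeR adjusted p = 0.0659), and RFNR2 from 57.1, 73.1 and 57.4 CPM to 83.2, 82.1 and 82.2 CPM (0.40; edgeR adjusted p = 0.111). Neither gene's groups overlapped. AT5G41670, of the 6-phosphogluconate dehydrogenase family, had -0.42 (edgeR adjusted p = 0.1).

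A further list held the peptide receptor gene CEPR1, which acts in signalling of nitrogen demand between root and shoot, a phosphatase gene and 4 glutaredoxin family genes. Of its 6 genes, 3 were tested, 1 rose and 0 fell, where 0.781% of all genes tested were called as higher and 0.482% as lower. The one that rose was the glutaredoxin family gene AT2G47880, with 1.64, 1.39 and 4.18 CPM in wild-type, against 27.2, 11.2 and 21.7 in the mutant-labelled libraries (log2 fold change 2.94; edgeR adjusted p = 0.0358). It lost the call without wild-type replicate 1 (adjusted p = 0.134), without wild-type replicate 2 (0.0735) and without labelled replicate 3 (0.111), and 33.0% of its 31-base words lie on the opposite strand of another RNA. CEPR1 itself had overlapping groups (-0.06; edgeR adjusted p = 0.868).

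**Figure D4:**
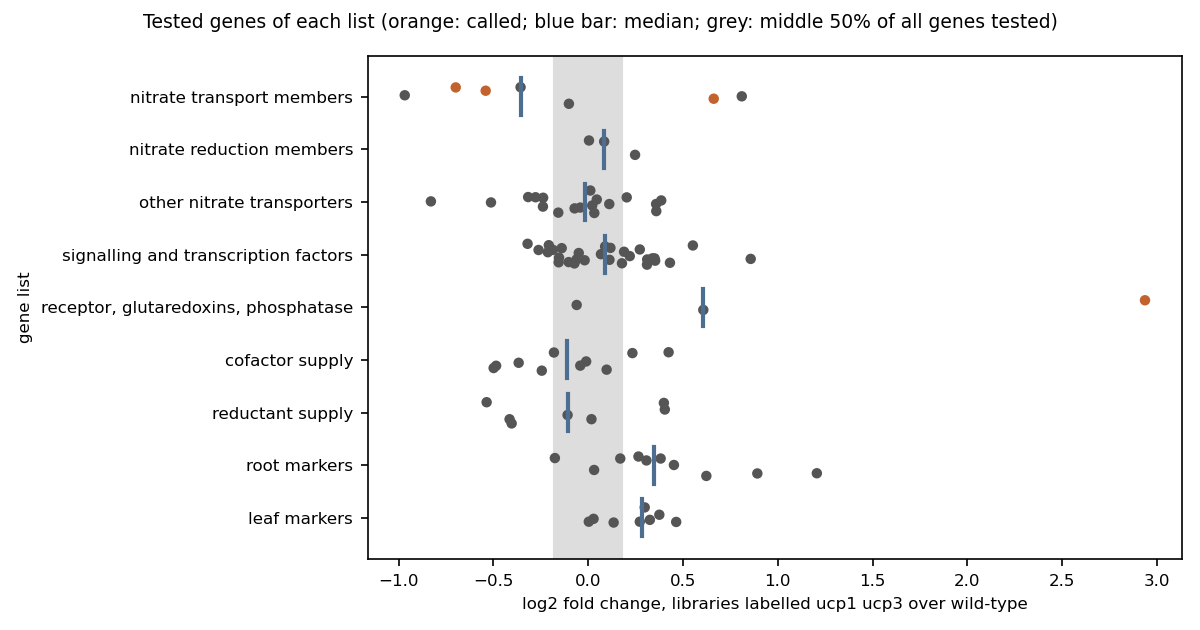
Log2 fold change of every tested gene of each list (points, orange where called), with the list's median (blue bar) and the middle 50% of all genes tested (grey band, -0.18 to 0.18). The 7 transporter members spread from -0.97 to 0.81, with 2 below, and 1 above, past the test, while the 3 reduction members lie between 0.00 and 0.25.

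Genes whose profile over the 6 libraries was nearest were found by the Euclidean distance between centred log2 CPM values, among 12473 genes whose mean reached 10 CPM. Nearest to NRT2.1 were E13L3, a callose-binding protein gene (distance 0.49), KINESIN-12B (0.57) and CCS (0.64). The profile of NIA1 was nearest to ACA8, a calcium pump gene (0.25), AT1G01770 (0.26) and AT3G28040 (0.27), and that of NIR1 to AT1G64150 (0.18), AT4G28080 (0.18) and WRKY18 (0.19). The AT1G64150 levels, 50.2, 50.7 and 37.2 CPM in wild-type, against 35.4, 45.7 and 44.2 in the mutant-labelled libraries, show the low wild-type replicate 3 and labelled replicate 1 of NIR1. Such likeness follows from choosing genes by their closeness, so it adds no further result.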

How the data were processed

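Each of the 6 libraries has a deposited table of estimated counts and TPM for every transcript model, as the authors made it. kallisto, DESeq2 and TAIR10 are named, per the submitters' processing notes. Versions, transcript index and strand setting are not given in the sources used here. Levels per length and shares use the TPM that the authors deposited. Estimated counts deposited by the authors for 35386 models were summed to 27416 genes and rounded; 26719 matched the RefSeq table of TAIR10.1, used for names, neighbours and sequences. Genotypes were compared in R 4.3.3 by edgeR 4.0.16 (default filter, TMM, robust quasi-likelihood F test, genotype as the only term) on 17415 genes, with Benjamini-Hochberg adjustment and calls under 0.05. CPM are counts over TMM-scaled library sizes. Standard errors are the estimate over the square root of F, and 95% intervals use the test's degrees of freedom. Floors of 3 reads cover counting error only. The comparison was repeated with DESeq2 1.42.0, with limma-voom (limma 3.58.1) on unrounded estimates, with a replicate block, RLE, library totals, other filters, limma on log2(TPM + 1), thinning and each library left out. The fit was also run on simulated counts, with the outcome not given here. The text names the 10 members, NRT2.2, NRT3.1, every called gene of each list, otherwise its 2 smallest p, and the 3 nearest profiles of NRT2.1, NIA1 and NIR1. CLCa, NLP7, RFNR2, CEPR1, LRX1 and AT1G69840 were named after their values were seen. Members and lists were chosen with earlier results of these data known.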

Additional observations from a re-analysis of the deposited data

How the results depend on the processing

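The direction of NRT1.1, NRT1:2, NRT1.5, NRT1.7, NRT1.8, NRT2.1 and NIA2 held in every alternative that tested them, 15 each and 12 for NRT2.1, but 6 of 15 alternatives called no member. These were the replicate block, limma on log2(TPM + 1), and leaving out wild-type replicate 1, wild-type replicate 3, labelled replicate 1 or labelled replicate 3. With the replicate block, log2 fold changes were -0.56 for NRT1:2 (edgeR adjusted p = 0.0546), 0.67 for NRT1.5 (0.0519) and -0.71 for NRT1.7 (0.0609), 0 members were called in either direction, and 45 genes were lower over all genes. Deviations of same-numbered replicates had correlations of -0.08, -0.11 and -0.02, and those of differently numbered ones -0.03 to 0.10. The labels do not say whether a number marks a shared batch, and these correlations cannot decide it for single genes. On log2(TPM + 1), limma gave -0.64 for NRT1:2, 0.58 for NRT1.5 and -0.77 for NRT1.7, with 0 members, 10 genes higher and 6 lower, against 136 and 84 in edgeR, and 0 in the list with CEPR1; it turned NIA1 to -0.011 and NIR1 to -0.08. Thinning to the shallowest library gave -0.47 for NRT1:2, -0.63 for NRT1.7 and -1.26 for NRT1.8, which alone of the lower members was called (1), and NIR1 at -0.069; it called NRT3.1 (-0.75), so 1 other transporter fell. NRT1.5 was not called by limma-voom (0.68) or with library totals (0.59, NIR1 -0.063), so 0 rose. The median over all genes was -0.098 for limma on log2(TPM + 1) and -0.057 with library totals, against -0.002 in the main fit. The values of single genes in those settings include that shift. NRT1.8 was called by DESeq2 (-1.02) and with no filter (-0.97, where NIR1 was -0.001 and 1 gene of the plastid reductant list fell). Over all genes, DESeq2 called 232 higher and 157 lower and no filter 267 and 223. AT2G47880 was not called by limma-voom, so 0 rose in that list, and DESeq2 gave it no adjusted p.

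Leaving out 1 library gave 31 to 326 genes higher and 16 to 347 lower, 0 to 1 member higher and 0 to 2 lower, 0 to 1 other transporter lower and 0 to 1 gene higher in the list with CEPR1. Log2 fold changes then ranged from -0.65 to -0.49 for NRT1:2, 0.52 to 0.84 for NRT1.5, -0.85 to -0.51 for NRT1.7, -1.13 to -0.73 for NRT1.8, -0.027 to 0.25 for NIA1, -0.13 to 0.11 for NIR1 and -0.20 to 0.094 for NRT1.4. The difference in the share of NIA1, whose exact permutation test cannot reach a p under 0.05, ranged from -4 to -1.03 percentage points. With 6 to 74 reads per library for NRT2.1 and 14 for NRT1.8 in the shallowest one, counting limits both.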

Other observations

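The RefSeq table names 27 genes as members of the NRT1/PTR family, of which 22 passed the filter, and the 6 NRT1 genes described above are among them. Of the other 16 tested, edgeR called 0 higher and 0 lower, with a median log2 fold change of -0.07. In 3 of these 16 the groups did not overlap, against 23.6% of all genes tested in either direction. All 3 were lower in the labelled mutants, the direction of 12.4% of all genes tested. They were GTR2, a glucosinolate transporter gene (115 ± 39.7 to 76.0 ± 7.22 CPM, SD, n = 3; log2 fold change -0.58, edgeR adjusted p = 0.223), NAXT1, a nitrate efflux transporter gene of the root (23.4 ± 2.82 to 18.0 ± 2.37 CPM; -0.32, edgeR adjusted p = 0.335), and PTR5, a dipeptide transporter gene (6.87 ± 0.891 to 4.86 ± 0.384 CPM; -0.45, edgeR adjusted p = 0.4). The lowest estimate of the 16 was that of PTR3, a stress-responsive peptide transporter gene, at -1.27 (31 ± 13.3 to 10.2 ± 7.34 CPM; edgeR adjusted p = 0.294), with overlapping groups. GTR1, the close relative of GTR2, had 52.5 ± 2.83 and 59.2 ± 11.7 CPM (0.12; edgeR adjusted p = 0.732). This list was taken by name from the annotation after the values of the 10 genes were known. It leaves out NRT1.12, NPF2.3, NPF5.11, NPF5.12 and NPF5.16, which lack that family name there and were tested among the other nitrate transporters. The groups of NPF5.11 did not overlap and were lower (-0.28, edgeR adjusted p = 0.324), while those of NRT1.12, NPF2.3, NPF5.12 and NPF5.16 overlapped.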
